A study of Danio rerio with 12 samples.

Results

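The genes described here are the Nodal ligand genes ndr1 and ndr2, the Nodal co-receptor gene tdgf1, the feedback inhibitor genes lft1 and lft2, and mixl1, a homeobox gene that acts downstream of the signal. These 6 genes were taken as a list by their zebrafish symbols and not by a cutoff on a measured value. The list was, however, chosen with earlier results of these data known. Of the 6, 5 have a row among the 33737 genes measured, and all 5 are among the 17053 genes kept for comparison, which stood at 1 RPKM or more in at least 1 table. The ID of ndr2 has no row in the tables, so ndr2 was not analysed here.

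Nodal proteins are secreted ligands of the TGF-beta family that specify mesoderm and endoderm at the margin of the zebrafish blastula. They bind activin receptors together with an EGF-CFC co-receptor, and the signal is carried to the nucleus by Smad proteins, which act there with partners such as FoxH1. The Lefty proteins are secreted antagonists whose genes are switched on by the signal itself, so that ligand and inhibitor are expressed in overlapping territory. The study compared control embryos with mutants of ddx3xb, a DEAD-box helicase gene. It covered the hours in which most of these genes first passed 1 RPKM.

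Whole embryos were collected 2, 4 and 6 hours after fertilization (hpf), and their polyadenylated RNA was sequenced, so the amount of an RNA and the length of its poly(A) tail cannot be told apart. The 6 groups were control embryos, labelled wild type (ddx3xb+/+), and mutant embryos, labelled Ddx3xb-/Ddx3xb- (ddx3xb-/-), at each of the 3 times, with 2 samples per group by the labels and 12 in all. The labels name no allele, do not say whether the mothers were mutant, and do not give the number of embryos or clutches per library. For each group the authors deposited 1 RPKM value per gene (reads per kilobase of gene, scaled to the reads of the library). Every value below is such a group value, so no standard deviation, p-value or test could be given, and differences are described by size alone. The spread between the 2 samples of a group is unknown for every gene named here.

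Low RPKM values fell on a grid with 2 steps per table, as a mean of 2 libraries of different depth gives. Relative depths were estimated from those steps, starting from values found by inspection and taking each table as a plain mean of 2 libraries. By this estimate the deepest of the 12 libraries held 1.93 times as many reads as the shallowest. The 2 libraries of a group differed in estimated depth by 1.02 to 1.76 times, and most in the mutant at 6 hpf. The estimate was not checked against read numbers. The scale of the steps is not fixed by the tables, so read numbers and counting errors are not given. The targeted gene ddx3xb stood at 325 RPKM in controls and 0.697 in mutants at 2 hpf. It stood at 318 and 18.8 at 4 hpf and at 194 and 48.8 at 6 hpf. Its RNA was thus not absent from mutants at the later times, and was at 25.2% of control at 6 hpf. The paralog ddx3xa stood at 117 and 108 at 4 hpf and at 32.1 and 118 at 6 hpf. Maternal markers were present at 2 hpf in both genotypes, but not all at equal levels. In controls and mutants GDF9 stood at 23.8 and 24.9 RPKM and buc at 301 and 251. ZAR1 stood at 28.3 and 45.7 and DAZL at 103 and 39.0. The enveloping layer marker krt4 was present at 6 hpf (1465 and 860.2). The pancreas gene ins did not exceed 0.492.

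Differences are given on the scale log2(RPKM + 1), which understates those of low genes, and a gene was counted as higher or lower at a difference of at least 1. Counts made this way say nothing of replicate error. Embryos were sequenced whole, so fewer expressing cells and less RNA per cell cannot be told apart.

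ndr1, also known as squint, was highest in controls at 4 hpf and in mutants at 6 hpf. In controls ndr1 (ENSDARG00000057096) stood at 0.915 RPKM at 2 hpf, 11.9 at 4 hpf and 1.68 at 6 hpf. In mutants it stood at 0.719, 6.05 and 12.1 at the same times. The control value at 4 hpf was thus 7.10 times that at 6 hpf (4.13 times with trimmed-mean rescaling), while the mutant value at 6 hpf was 2.01 times that at 4 hpf. The mutant level at 6 hpf was 1.02 times the control level at 4 hpf (1.35 times with trimmed-mean rescaling and 1.31 times with quantile normalization).

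Set against the control of the same age, ndr1 was at 78.5% of the control level at 2 hpf, 50.8% at 4 hpf and 724% at 6 hpf. The log2 differences were -0.16, -0.87 and 2.30. The last of these was matched or exceeded by 231 of the 17053 genes. Between 4 and 6 hpf 35.1% of genes were lower in controls by at least 1 log2, and ndr1 was one of them, with a log2 difference of -2.27. Of those 5994 genes 208, or 3.47%, were higher in mutants at 6 than at 4 hpf by any amount, which is 1.22% of all genes. ndr1 was among these, at 0.90, which stays below the size counted here but passed it with trimmed-mean rescaling (1.30) and quantile normalization (1.27). The 208 genes and both shares were counted as deposited only. With trimmed-mean rescaling 3598 genes, not 5994, were lower in controls, and the shares were not recounted.

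**Figure D1:**
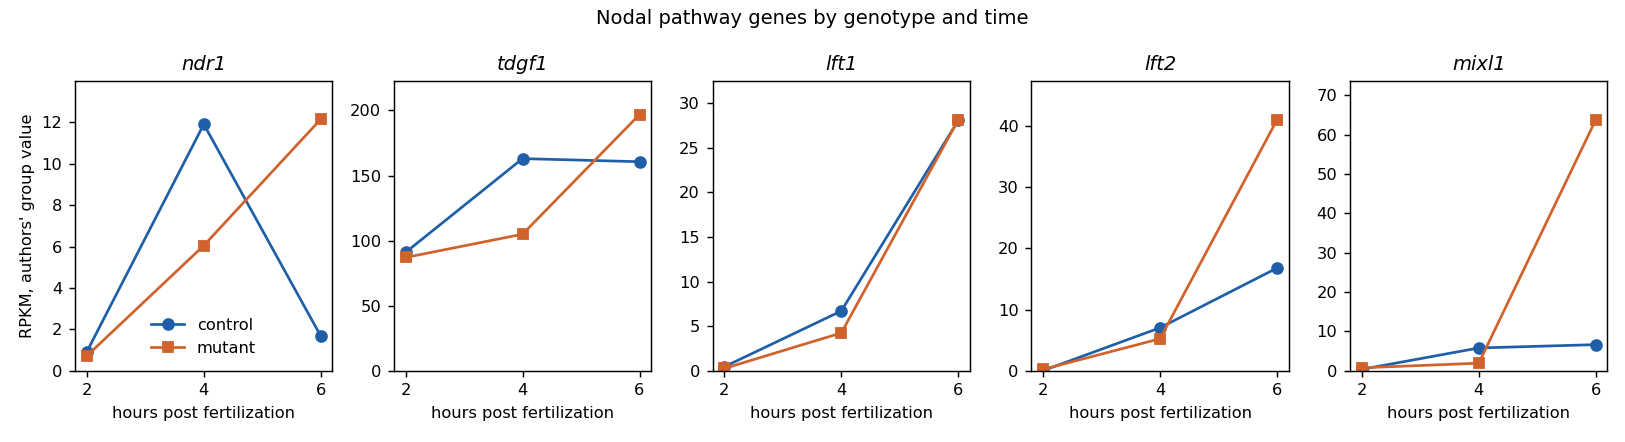
RPKM of ndr1, tdgf1, lft1, lft2 and mixl1 (1 panel each, linear axes from 0 that differ between panels) against hours post fertilization in control (circles) and mutant embryos (squares). Each point is the authors' single value for a group of 2 samples, so no error bar can be drawn; ndr1 peaks at 11.9 in controls at 4 hpf and reaches 12.1 in mutants at 6 hpf, and mixl1 reaches 63.8 in mutants at 6 hpf.

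tdgf1, also known as one-eyed pinhead, encodes the EGF-CFC co-receptor without which Nodal ligands cannot signal. Its RNA is laid down in the egg, and it was the only one of the 5 genes above 1 RPKM at 2 hpf. tdgf1 (ENSDARG00000035095) stood at 91.0 RPKM in controls at 2 hpf, 163 at 4 hpf and 161 at 6 hpf. In mutants it stood at 87.0, 105 and 197. The mutant level was 95.7% of control at 2 hpf, 64.4% at 4 hpf and 123% at 6 hpf. None of these differences reached 1 log2 (-0.06, -0.63 and 0.29), and the last was -0.08 with trimmed-mean rescaling. In controls the larger step lay between 2 and 4 hpf (1.79 times) and in mutants between 4 and 6 hpf (1.88 times). With trimmed-mean rescaling the control was also higher at 6 than at 4 hpf, standing at 86.1, 140.0 and 237 at 2, 4 and 6 hpf.

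The Lefty genes were higher at each later time in both genotypes. lft1 (ENSDARG00000019920) stood at 0.451 RPKM in controls at 2 hpf, 6.70 at 4 hpf and 28.0 at 6 hpf. In mutants it stood at 0.259, 4.24 and 28.1. The mutant level was thus 63.3% of control at 4 hpf and 100.3% at 6 hpf, with log2 differences of -0.55 and 0.00. The second value was -0.36 with trimmed-mean rescaling and -0.15 with quantile normalization.

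lft2 (ENSDARG00000044059) stood at 0.0275 RPKM in controls at 2 hpf, 7.03 at 4 hpf and 16.8 at 6 hpf. In mutants it stood at 0.232, 5.23 and 41.0. The mutant was at 74.5% of control at 4 hpf and at 244% at 6 hpf, with log2 differences of -0.37 and 1.24. The difference at 6 hpf was just below 1 log2 after rescaling of the tables (0.88 by trimmed means, 0.97 by quantiles). It was also not far out among all genes, 12.6% of which were at least as much higher.

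The balance between the Lefty genes differed between genotypes at 6 hpf. RPKM is scaled by gene length, but how reads were counted and which lengths were used is not given. Ratios between genes, here and below, are thus approximate and serve to compare groups. At 4 hpf lft2 was at 1.05 times lft1 in controls and 1.23 times in mutants. At 6 hpf it was at 0.599 times lft1 in controls and 1.46 times in mutants. The summed Lefty level was 13.7 RPKM in controls and 9.47 in mutants at 4 hpf, and 44.8 and 69.1 at 6 hpf.

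Inhibitor and ligand were also set beside each other. The sum of lft1 and lft2 was 1.15 times ndr1 in controls and 1.57 times in mutants at 4 hpf. At 6 hpf it was 26.7 times ndr1 in controls and 5.69 times in mutants. The ratio was thus higher at 6 than at 4 hpf in both genotypes. These ratios leave out ndr2, so they do not describe the whole ligand pool.

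mixl1, known from the bonnie and clyde mutant, encodes a homeodomain protein needed for endoderm and is a target of Nodal signaling. It had the largest genotype differences of the 5 genes at 4 and at 6 hpf, and in opposite directions. mixl1 (ENSDARG00000069252) stood at 0.370 RPKM in controls at 2 hpf, 5.81 at 4 hpf and 6.65 at 6 hpf. In mutants it stood at 0.754, 1.94 and 63.8. Mutants were thus at 33.0 times their 4 hpf level at 6 hpf. In controls the log2 difference between these times was 0.17, or 0.85 with trimmed-mean rescaling (4.99 and 9.82 RPKM) and 0.74 with quantile normalization.

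The mutant level of mixl1 was 33.4% of control at 4 hpf and 960% of it at 6 hpf. The log2 differences were -1.21 and 3.08. At 4 hpf 4.34% of genes were at least as much lower, and at 6 hpf 27 of 17053 genes were at least as much higher. Being lower at 4 hpf and higher at 6 hpf by at least 1 log2 each was found in 53 genes, or 0.311%, and mixl1 was the only one of the 5 among them. ndr1 fell short of this at 4 hpf (-0.87). The log2 difference between the mutant at 6 hpf and the control at 4 hpf was 3.25 for mixl1, against 0.03 for ndr1.

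By genotype, 0 of the 5 genes differed by at least 1 log2 at 2 hpf, when 4.14% of all genes were higher in mutants and 3.34% lower. At 4 hpf all 5 were below control, by 0.37 to 1.21 on the log2 scale, and they were below it under each scaling too. Only mixl1 was counted as lower, against 6.31% of all genes, and 0 of the 5 as higher, against 3.79%. The median of the 5 was -0.63 and that of all genes 0.01. At 6 hpf ndr1, lft2 and mixl1 were counted as higher, 3 of 5 against 18.3% of all genes, and 0 as lower, against 8.91%. The median of the 5 was 1.24 and that of all genes 0.22. The median over all genes at 6 hpf moved by -0.27 with trimmed-mean rescaling and by -0.15 with quantile normalization. Of all genes counted at 6 hpf 67.2% were higher in mutants as deposited, 45.8% with trimmed-mean rescaling and 52.4% with quantile normalization.

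**Figure D2:**
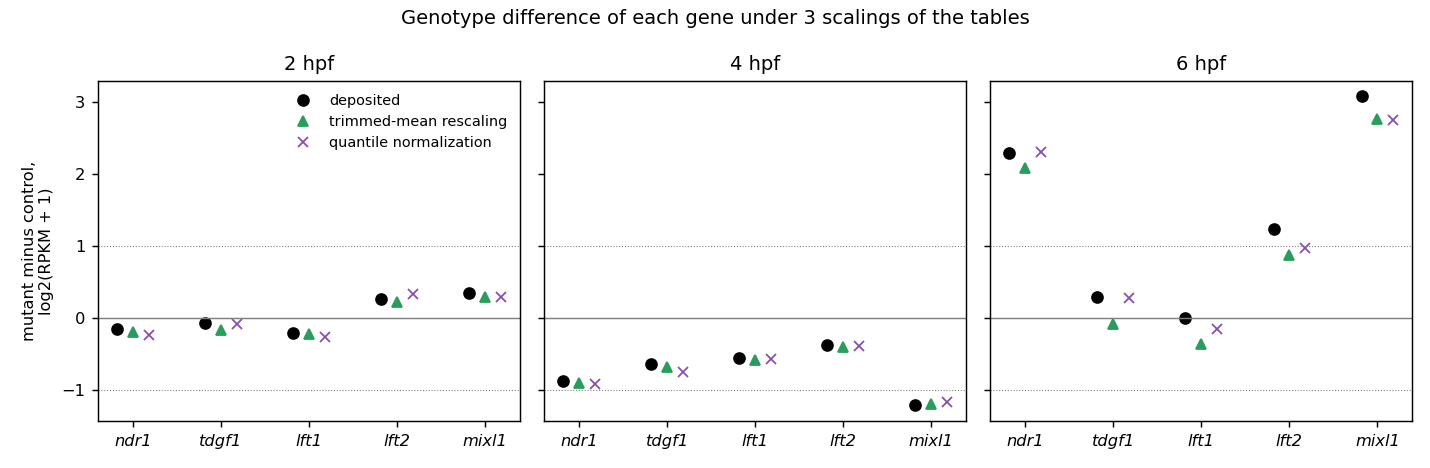
Mutant minus control difference in log2(RPKM + 1) at 2, 4 and 6 hpf (panels) for ndr1, tdgf1, lft1, lft2 and mixl1, from the tables as deposited (circles), with trimmed-mean rescaling (triangles) and with quantile normalization (crosses). Dotted lines mark 1 log2; all genes lie below 0 at 4 hpf, and at 6 hpf ndr1 (2.30) and mixl1 (3.08) lie above 1 under each scaling, while lft2 (1.24) does so only as deposited.

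By time, the control level at 4 hpf exceeded that at 2 hpf by at least 1 log2 for 4 of 5 genes, against 8.79% of all genes, and 0 were lower, against 2.84%. In mutants 3 of 5 were higher in that interval, against 3.21%, and 0 lower, against 0.264%. The gene that was counted in controls and not in mutants was mixl1, at 2.31 and 0.74. With a pseudocount of 0.1 its mutant difference was 1.25, which made it 4 of 5 in mutants too. Between 4 and 6 hpf 2 of 5 were higher in controls (lft1 and lft2, 17.3% of all genes) and 1 was lower (ndr1, against 35.1% of all genes). In mutants 3 of 5 were higher in that interval (lft1, lft2 and mixl1, 12.3% of all genes) and 0 lower (18.9%). With trimmed-mean rescaling all 5 were higher there. Of all genes counted in that interval 33.0% were higher in controls as deposited and 57.5% with trimmed-mean rescaling, and in mutants 39.3% and 71.2%.

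The shift in the genotype difference between times puts these courses on 1 scale. From 2 to 4 hpf all 5 genes shifted downward in mutants relative to controls, by 0.35 to 1.57. The median shift of all genes was -0.03. mixl1 alone shifted downward by at least 1 log2, against 4.53% of all genes, and 1.38% of all genes shifted upward by that much. From 4 to 6 hpf all 5 shifted upward, an interval in which the median shift of all genes was 0.23. The shift was 4.30 for mixl1, 3.17 for ndr1 and 1.60 for lft2, which made 3 of 5 past 1 log2 against 17.9% of all genes. None shifted downward by that much, against 8.19%. tdgf1 shifted by 0.92 and lft1 by 0.56. The shift of mixl1 was reached by 6 of 17053 genes, itself included, and that of ndr1 by 45. Since both shifts use the 4 hpf tables, they are not independent of each other.

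**Figure D3:**
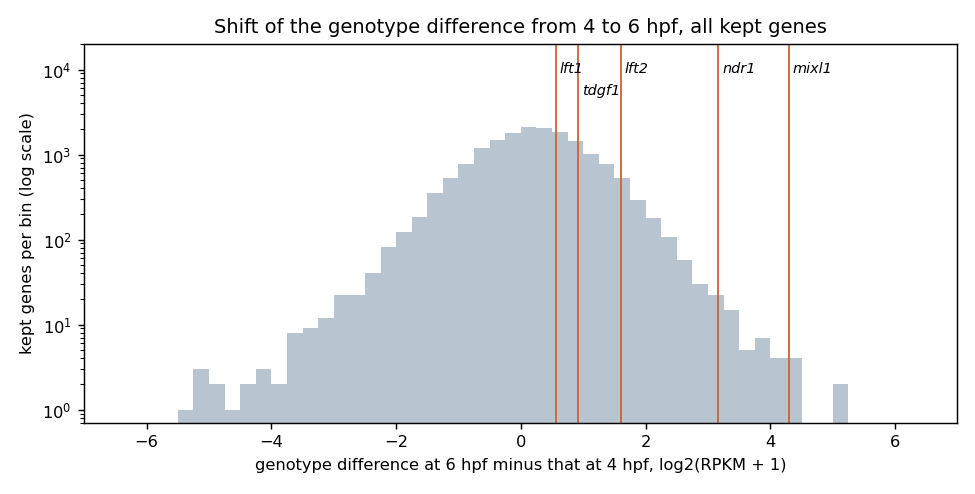
Distribution over the 17053 kept genes of the genotype difference at 6 hpf minus that at 4 hpf, in log2(RPKM + 1), with the number of genes per bin on a log axis. Lines mark lft1 (0.56), tdgf1 (0.92), lft2 (1.60), ndr1 (3.17) and mixl1 (4.30); the last lies in the far right tail.

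A comparison of the mutant at 6 hpf with the control at 4 hpf separated the genes again. The difference was 0.03 for ndr1 and 0.27 for tdgf1, and 0.40 and 0.67 with trimmed-mean rescaling. lft1 (1.92), lft2 (2.39) and mixl1 (3.25) were above it, 3 of 5 against 10.4% of all genes, and 0 were lower by 1 log2, against 16%. This comparison and those above share tables, so their values are given side by side and not as separate evidence.

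Genes with the most similar courses over the 6 tables were sought for each of the 5, by the root mean square difference of centred log2(RPKM + 1) among 9345 other genes with a symbol and at least 5 RPKM in 1 table. Closest to ndr1 were FOS (0.46), cdkn1a (0.50), which encodes a cyclin-dependent kinase inhibitor, and zgc:112332 (0.51). cdkn1a, for instance, stood at 14.4 and 2.21 RPKM in controls at 4 and 6 hpf and at 9.16 and 9.62 in mutants. Closest to lft2 were cst3 (0.19), GSC (0.32), the organizer homeobox gene goosecoid, and si:ch73-39o22.3 (0.35). GSC stood at 15.6 and 27.5 RPKM in controls at 4 and 6 hpf and at 6.96 and 68.8 in mutants.

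Closest to mixl1 were SOSTDC1 (0.53), which encodes a secreted BMP and Wnt antagonist, sebox (0.53) and ftr90 (0.54). sebox, known as mezzo, encodes a homeodomain protein that acts downstream of Nodal in zebrafish mesendoderm. It stood at 1.06 and 1.91 RPKM in controls at 4 and 6 hpf and at 0.162 and 14.9 in mutants. Closest to lft1 were srsf5a (0.22), SNORA62 (0.23) and si:ch73-39o22.3 (0.25), and among the 3 closest to tdgf1 were HSPA8 (0.11) and phc1 (0.14). Among the 5 genes themselves the Lefty pair was the closest (0.42), with 19 genes closer to lft1 than lft2 is and 6 closer to lft2 than lft1 is. ndr1 and lft1 were much farther apart (1.48).

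The rest of the pathway was described from 6 lists by role, which name 56 genes, of which 49 could be matched to IDs. Some IDs carry a shared symbol without the letter that tells zebrafish paralogs apart, and those are given by symbol and ID. Over all lists 49 IDs passed the filter. They do not stand one for one for the 49 genes, since a shared symbol can bring in a paralog that was not listed. At 4 hpf 14 of them were counted as lower in mutants, against 6.31% of all genes, and 0 as higher, against 3.79%. At 6 hpf 8 were higher, against 18.3%, and 3 lower, against 8.91%, which is not more than over all genes in either direction. With trimmed-mean rescaling 6 were higher and 8 lower at 6 hpf, and with quantile normalization 7 and 6. The same shares of all genes apply to the as-deposited counts by role at 4 and 6 hpf below. They do not apply to rescaled counts. At 6 hpf 2324 of all 17053 genes were higher in mutants and 2750 lower with trimmed-mean rescaling. With quantile normalization 2536 were higher and 2305 lower.

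Upstream of the Nodal genes, 1 of 8 was lower in mutants at 4 hpf and 3 were higher at 6 hpf, with medians of -0.41 and 0.17. With trimmed-mean rescaling 3 were higher and 2 lower at 6 hpf, with a median of -0.08. mxtx2, a homeobox gene of the yolk syncytial layer, stood at 91.2 RPKM in controls and 28.6 in mutants at 4 hpf and at 3.58 and 31.6 at 6 hpf. Like mixl1 it was counted as lower at 4 and higher at 6 hpf, and its control course, high at 4 and low at 6 hpf, resembled that of ndr1. nanog, an activator of the zygotic genome, stood at 1126 and 806 RPKM at 4 hpf and at 39.8 and 412 at 6 hpf. EOMES (ENSDARG00000006640), an RNA laid down in the egg, was the third counted as higher at 6 hpf, at 5.97 and 44.0. YBX1, whose zebrafish protein binds ndr1 RNA, was lower at 6 hpf by less than 1 log2 (2452 and 1439, -0.77), but with trimmed-mean rescaling YBX1 (-1.15) and CTNNB1 (-1.04) were counted as lower.

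Ligand partners and processing enzymes had 3 matched IDs. gdf3, also known as Vg1, encodes the egg-supplied ligand that pairs with Nodal proteins in zebrafish. It stood at 425 RPKM in controls and 273 in mutants at 2 hpf, at 282 and 273 at 4 hpf and at 26.0 and 145 at 6 hpf. The control thus held much less of it at 6 than at 4 hpf, and the mutant difference at 6 hpf was 2.43 on the log2 scale. Of the IDs named FURIN, a protease that cleaves ligand precursors, ENSDARG00000070971 stood at 0.650 and 5.75 at 6 hpf and ENSDARG00000062909 at 3.65 and 6.37.

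Receptor genes did not pass 1 log2 between genotypes at any time, with medians of -0.07 at 4 hpf and 0.37 at 6 hpf over 5 IDs. The 6 hpf median was 0.03 with trimmed-mean rescaling and 0.10 with quantile normalization. The most abundant, ACVR1B (ENSDARG00000018968), a type I receptor, stood at 80.3 RPKM in controls and 76.3 in mutants at 4 hpf and at 62.3 and 112 at 6 hpf. The other ACVR1B ID, ENSDARG00000052142, had the largest receptor difference at 4 hpf (-0.75). It stood at 52.0 and 30.4 RPKM then and at 14.4 and 19.1 at 6 hpf. Among 6 IDs of transducers 1 was lower at 4 hpf and 1 higher at 6 hpf. The latter was SMAD2 (1.03), which was not counted with trimmed-mean rescaling (0.70) or quantile normalization (0.79), where 1 ID, SMAD4, was lower instead. SMAD4 (ENSDARG00000075226), the shared partner of receptor-activated Smads, was counted as lower in mutants at 2 hpf (-1.22) and at 4 hpf (-1.25, 18.2 and 7.07 RPKM). Over all genes 3.34% were lower at 2 hpf. The other SMAD4 ID, ENSDARG00000012649, was not counted at any time (-0.31, -0.49 and -0.05 at 2, 4 and 6 hpf). SMAD2 stood at 7.99 and 17.4 at 6 hpf, and foxh1, whose protein recruits Smads to Nodal targets, at 78.3 and 57.4 at 4 hpf and 70.7 and 86.4 at 6 hpf.

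Other inhibitors, 10 of 11 of which passed the filter, lay lower at 4 hpf in 3 cases and at 6 hpf in 1, with 0 higher at either time. With either rescaling 3 were lower at 6 hpf, namely skilb, dact2 and SKI. dact2, whose zebrafish protein promotes degradation of Nodal receptors, stood at 10.9 RPKM in controls and 2.19 in mutants at 4 hpf and at 19.3 and 9.84 at 6 hpf. SMAD7, an inhibitory Smad, stood at 12.7 and 4.36 at 4 hpf and at 25.2 and 23.8 at 6 hpf. skilb, which encodes a Smad corepressor, stood at 2.37 and 0.357 at 4 hpf and at 14.8 and 2.90 at 6 hpf. DRAP1, which inhibits FoxH1 in the mouse, was the most abundant, at 263 and 196 at 4 hpf. At 6 hpf PMEPA1 (0.82), SMURF2 (0.44), SMURF1 (0.36) and SKIL (0.18) stood above control by less than 1 log2 as deposited. TGIF1 (-0.54) and DRAP1 (-0.25) stood below it by less than 1 log2. The median of the list at 6 hpf was -0.16 as deposited, -0.53 with trimmed-mean rescaling and -0.17 with quantile normalization.

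Many targets of the pathway lay below control at 4 hpf. So did the enveloping layer, yolk syncytial and neuroectoderm markers, 3 of 3 in each set by any amount, described below with the other sets. Of these markers SLC26A1 (0.423 and 0.0144 RPKM) and SOX2 (0.311 and 0.265) were low in both genotypes at 4 hpf. HNF4A was low as well (1.16 and 0.109), and mxtx2 is also in the upstream list. Of 17 kept target IDs 9 were lower in mutants at 4 hpf and 0 higher, with a median of -1.06. The shares of all genes were 6.31% and 3.79%. As deposited, 12 of the 17 were at least 1 log2 higher at 4 than at 2 hpf in controls, against 8.79% of all genes. How many of all genes with such a rise were lower in mutants at 4 hpf was not counted. With exact symbols only, 6 of 13 were lower, with a median of -0.82. Among the 9 were both IDs named CXCR4, ENSDARG00000041959 (-1.23) and ENSDARG00000057633 (-1.64), although the list names only cxcr4a. The listed targets tbxta, sox32, sox17, gata6 and fgf3 could not be matched to a row and were not analysed. In plain RPKM 16 of the 17 kept IDs were below control by any amount. The share of all genes below control by any amount was not counted. The median log2 difference of all genes at 4 hpf was 0.01. At 6 hpf 2 were higher and 2 lower, with a median of 0.44, which is not more than over all genes in the higher direction. With trimmed-mean rescaling 1 was higher and 2 lower, with a median of 0.06. All 17 stood at least 1 log2 higher at 6 than at 4 hpf in mutants, with a median of 3.13, and 10 of 17 did in controls, with a median of 1.60. Over all genes the shares as deposited were 12.3% and 17.3%. In controls the count was 17 of 17 with trimmed-mean rescaling (median 2.33) and 11 of 17 with quantile normalization. Over all 17053 genes the control count also went up, from 2952 as deposited to 4871 and 3965 under these scalings. The larger target counts are thus not particular to the targets.

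tbx16, a T-box gene of the mesoderm and the target with the largest difference at 4 hpf, stood at 55.1 RPKM in controls and 8.91 in mutants at 4 hpf and at 132 and 179 at 6 hpf. sebox had the largest difference at 6 hpf (2.45), and GSC (1.29, or 0.93 with trimmed-mean rescaling) was the other target counted as higher. FOXA2 and frzb were the targets counted as lower at 6 hpf, at 19.2 and 6.84 RPKM and at 19.8 and 3.86. The targets GATA5 and foxa3 were chosen here after their values were seen. They stood at 2.44 and 0.357 and at 8.02 and 1.80 at 4 hpf. At 6 hpf they stood at 32.4 and 56.3 and at 73.0 and 87.3, while FOXA2 went the other way (-1.37). With trimmed-mean rescaling foxa3 lay below control at 6 hpf. The most abundant target, FSCN1 (ENSDARG00000059680), which encodes an actin-bundling protein, already stood at 101 and 102 at 2 hpf and did not pass 1 log2 between genotypes.

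**Figure D4:**
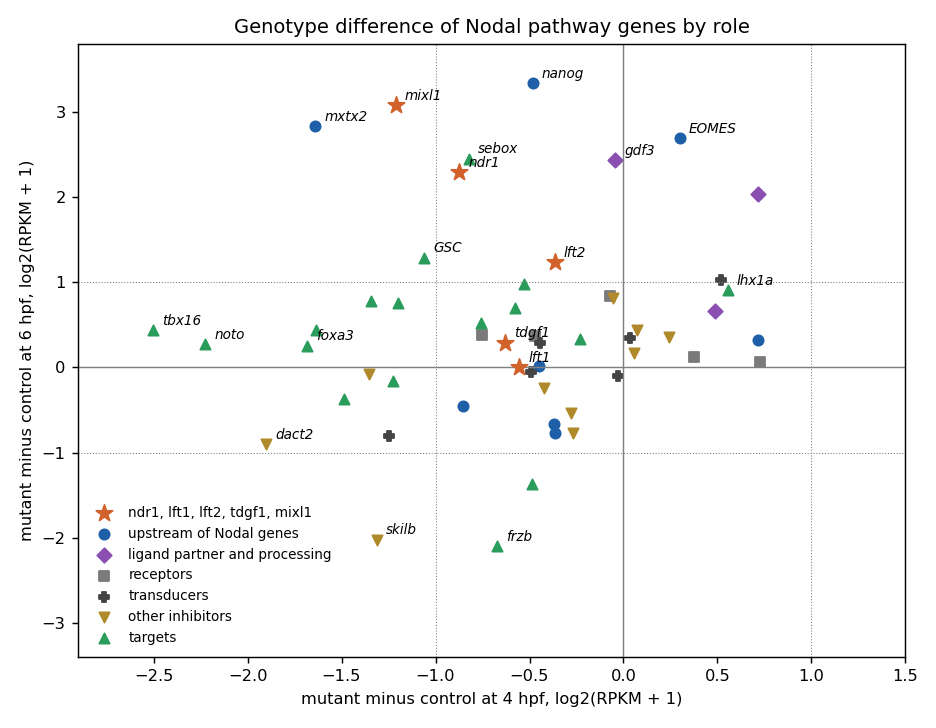
Mutant minus control difference in log2(RPKM + 1) at 4 hpf (horizontal) and 6 hpf (vertical) for ndr1, lft1, lft2, tdgf1 and mixl1 (stars) and the 49 kept IDs of the pathway lists, marked by role. Dotted lines mark 1 log2; mixl1, mxtx2 and GSC lie beyond both lines in the upper left, and 16 of 17 targets lie left of 0.

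Several marker sets differed with genotype at 6 hpf and were set beside these results. GDF9 stood at 0.686 RPKM in controls and 7.68 in mutants at 6 hpf, buc at 6.13 and 61.7, ZAR1 at 11.7 and 30.4 and DAZL at 4.12 and 7.63, so 4 of 4 were above control. At 4 hpf DAZL was at 20.5 and 20.2, and the other 3 were above control. The enveloping layer markers krt4, krt5 and cldne were below control at 4 and 6 hpf, 3 of 3 at each time. At 4 hpf the yolk syncytial, organizer and neuroectoderm markers were also below control, 3 of 3 in each set. These marker counts take a difference of any size. Of the margin and mesoderm markers 1 of 2 was below control at 4 hpf, and of the genome activators 2 of 3. Of the yolk syncytial markers, HNF4A (35.7 and 34.3) and SLC26A1 (23.0 and 14.7) were not above control at 6 hpf, while mxtx2 was. The mesoderm marker msgn1 stood at 125 and 14.0 RPKM at 6 hpf and tbx16 above control. Of the neuroectoderm markers SOX2 (97.0 and 20.6) and otx2a (62.8 and 14.9) were below control at 6 hpf and SOX3 (188 and 230.2) above it. All 3 genome activators were above control at 6 hpf as deposited, with pou5f3 nearly equal (619 and 626). Trimmed-mean rescaling divides values by a factor, at 6 hpf -0.56 log2 in controls and -0.19 log2 in mutants. Under it pou5f3 and SOX3 lay below control at 6 hpf. The part of these differences in those of the Nodal genes was not tested.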

How the data were processed

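RNA was extracted from whole zebrafish embryos with TRIzol, and messenger RNA was purified on beads and made into stranded libraries, per the labels' protocols. The submitters' processing notes list Zv9 as the build and, without roles, HISAT2 2.0.5, cutadapt 1.13, SAMtools 1.9 and Trimmomatic 0.36. How reads were counted, with which annotation and strand setting, is not given in the sources used here. Values in the tables the authors deposited are RPKM, in 6 tables, 1 per genotype and time, with 1 value per Ensembl gene ID for the 2 samples of a group. Tables were assigned to groups by genotype and hour. If the 2 samples differ, the table does not show it.

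Symbols were matched to IDs through a gene name table, which named 21939 of 33737 IDs. Genes with at least 1 RPKM in at least 1 of 6 tables were kept. Values were compared as log2(RPKM + 1) with a size threshold of 1, in Python 3.11.15 with pandas 2.3.3 and numpy 2.4.6. Library steps were read from ratios of values under 0.15 RPKM, with starting values found by inspection. The functions were tested on simulated data. For the library steps the simulated steps lay close to the same starting values, so that test cannot show that these values are right. Alternatives were pseudocounts of 0.1 and 0.5, no filter, a filter on 2 tables, trimmed-mean rescaling (30% and 5% trimmed) and quantile normalization. Named pathway genes are those of each list with the largest genotype difference at 4 and at 6 hpf and the highest RPKM, whole lists where short, and others described after their values were seen. Where no ID had a listed symbol, the symbol without its final a or b was used, a choice made after seeing the data. The genes and lists were chosen with earlier results of these data known. No coordinates, promoters or protein sequences were used here. Of the 3 genes closest in course to tdgf1, 1 is not reported here.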

Additional observations from a re-analysis of the deposited data

Results flagged for a closer look

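Some genes differed from control in opposite directions at different times, or between times in opposite directions in the genotypes, by at least 1 log2 in all. These differences between group values were not tested, and the values of single samples are not in the tables.

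ndr1 differed from control by -0.87 at 4 hpf and 2.30 at 6 hpf, 3.17 apart. Against its difference of -0.16 at 2 hpf, the 6 hpf value was 2.45 apart. Seen by time, ndr1 was lower by 2.27 at 6 than at 4 hpf in controls (a log2 difference of -2.27) and higher by 0.90 in mutants, which is the same gap of 3.17. lft2 differed by -0.37 at 4 hpf and 1.24 at 6 hpf, 1.60 apart. mixl1 differed by 0.36 at 2 hpf and -1.21 at 4 hpf, a gap of -1.57, and by 3.08 at 6 hpf, 4.30 above its 4 hpf value.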

How the results depend on the processing

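Of 120 counts of the 5 genes under the alternatives, 117 lay within 1.5 times of the main count. The alternatives with no filter and with a filter on 2 tables could not change values of these genes. Under each of them 20 counts and 50 differences were thus the same by construction. A count within 1.5 times can still lose a gene: at 6 hpf 3 higher in mutants became 2 with either rescaling. With a pseudocount of 0.1, 1 gene was higher in mutants at 2 hpf (lft2, 1.38), and 2 were lower in the shift from 2 to 4 hpf. Trimmed-mean rescaling gave 5 higher in mutants at 6 than at 4 hpf. Of 300 differences of single genes 291 kept their side of the threshold, 7 passed it only under an alternative, and 2 did so only as deposited, both lft2 at 6 hpf (0.88 and 0.97 with rescaling). No called difference of the 5 genes changed sign under these alternatives. The median of the targets at 4 hpf was -0.82 without a filter and also with exact symbols only, an alternative chosen after seeing the data.

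Counts over all genes moved by over 1.5 times in 26 of 120 cases. With a pseudocount of 0.1 the counts higher and lower in mutants went from 706 and 569 to 1562 and 1172 at 2 hpf, from 647 and 1076 to 1312 and 2263 at 4 hpf, and from 3114 and 1519 to 5178 and 2282 at 6 hpf. From 2 to 4 hpf they went from 1499 and 484 to 2774 and 767 in controls and from 547 and 45 to 1406 and 170 in mutants (73 lower with 0.5). The lower counts went from 3229 to 4916 in mutants from 4 to 6 hpf and from 2737 to 4259 for mutants at 6 against controls at 4 hpf. For the shift they went from 235 and 773 to 607 and 1795 (2 to 4 hpf), and the higher count from 3045 to 5300 (4 to 6 hpf). Trimmed-mean rescaling and quantile normalization gave 2750 and 2305 lower in mutants at 6 hpf, 1166 and 1973 lower in mutants from 4 to 6 hpf, 1162 and 1780 lower for mutants at 6 against controls at 4 hpf, and 2384 and 2196, against 1396, for the shift from 4 to 6 hpf. In controls from 4 to 6 hpf trimmed means gave 4871 higher and 3598 lower, against 2952 and 5994. The cause was not tested.

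No paired analysis was possible because each table holds 1 value for both samples of a group. No replicate was left out, since no table gives single samples. RPKM without read numbers gives no counting error.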
